A study of Mus musculus with 6 samples.

Results

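Glycosaminoglycan synthesis and sulfation was examined as a set of 46 mouse genes, found in the deposited expression table by an exact match of the gene name. The table holds 27734 genes, of which 14012 averaged at least 1 FPKM (fragments per kilobase of transcript, scaled to the mapped fragments of the library) and were tested. All 46 members were in the table and 42 were tested. Chst3, Chst7, Chst13 and Hs3st1 averaged under 1 FPKM and were not. The RNA came from primary rib chondrocytes of E18.5 mouse embryos, released from the tissue by pronase and collagenase D and collected without sorting or culture. There were 3 Jab1 cKO libraries (Jab1flox/flox; Col2a1-Cre) and 3 wild-type libraries, named here by group and column number 0, 1 or 2. Cre driven by Col2a1 acts in cells that express this cartilage collagen gene. Cells of the digest from lineages that never expressed it would keep Jab1, which was not tested here. The labels do not say whether the wild-type embryos carried floxed alleles or Cre, nor whether each library had an embryo or litter of its own. The p-values therefore reflect how far these libraries scatter, part of which may be technical.

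Glycosaminoglycans are long sugar chains built in the Golgi on proteoglycan core proteins, starting from a linker tetrasaccharide on a serine. Elongation then makes either chondroitin and dermatan sulfate or heparan sulfate, and sulfotransferases add sulfate taken from the donor PAPS (3'-phosphoadenosine 5'-phosphosulfate). In cartilage, chondroitin sulfate on aggrecan holds water and gives the tissue its stiffness, while the sulfation pattern of heparan sulfate sets which growth factors bind it. Inherited defects in several of these genes cause skeletal dysplasias.

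The 3 members that passed the test all act in the editing of heparan sulfate, and each lost its call in some fits with a library left out. Hs6st2, a 6-O-sulfotransferase that adds sulfate to heparan chains, rose 2.28-fold in Jab1 cKO chondrocytes. Sulf1, a secreted sulfatase that removes 6-O-sulfate from those chains, rose 1.85-fold. Glce, the epimerase that turns glucuronic into iduronic acid in heparan sulfate, fell to 0.718 of its wild-type level. These were 3 of the 42 tested members, or 7.14%, beside 6.07% of all genes tested, so the members passed about as often as genes in general. In the limma fit at an adjusted p under 0.05, 2 members rose, beside 3.48% of all genes, and 1 fell, beside 2.59%. The median difference over the tested members was close to 0 on the log2 scale, with 21 positive and 21 negative, and the median size of a difference was 0.19, the same to 2 decimals as over all genes. Before adjustment, 8 members were higher and 5 lower at p under 0.05, together 31.0% of the tested members, against 24.7% of all genes. The 3 mutant and 3 wild-type libraries did not overlap for 17 members (9 higher and 8 lower), or 40.5%, against 32.2% of all genes.

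**Figure D1:**
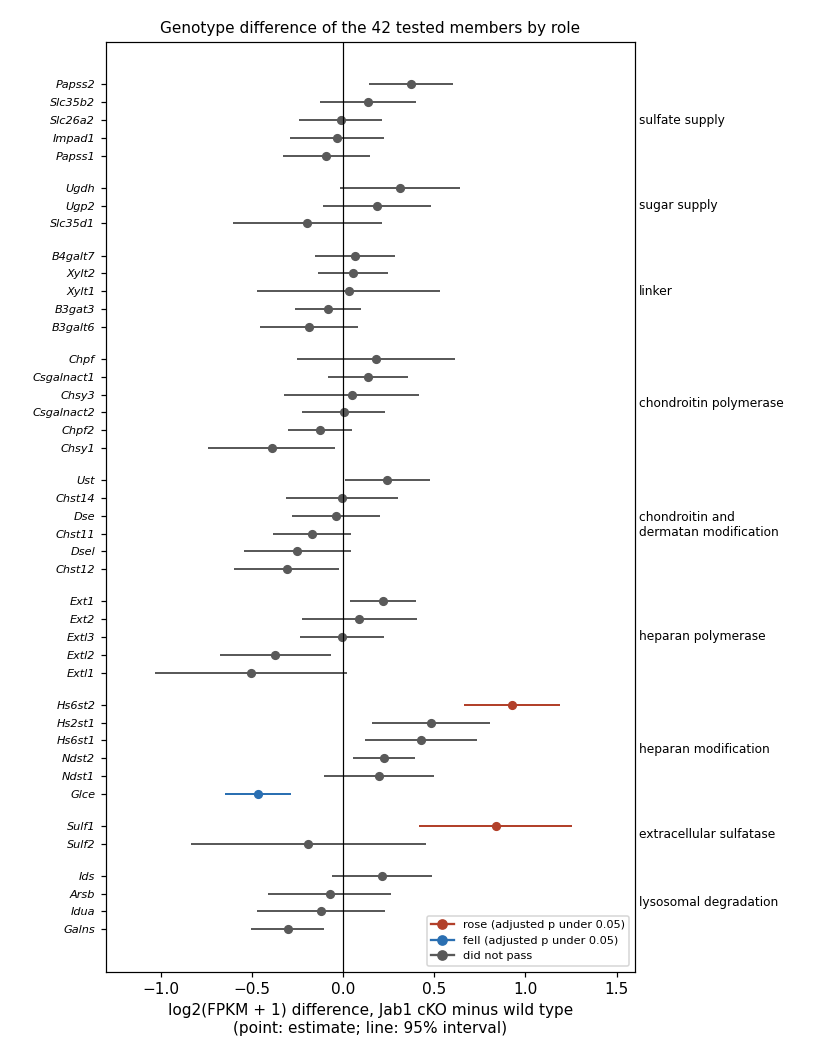
Genotype difference of each tested member, grouped by role. The horizontal axis is the difference in log2(FPKM + 1), Jab1 cKO minus wild type, points are estimates and lines 95% intervals. Hs6st2 and Sulf1 are coloured as higher and Glce as lower at an adjusted p under 0.05; the other 39 members did not pass.

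Jab1, listed as Cops5, measured 17.0, 18.01 and 17.2 FPKM in mutant columns 0, 1 and 2, against 42.3, 39.8 and 40.1 FPKM in wild-type columns 0, 1 and 2. All mutant libraries were low and the groups lay far apart (log2 difference -1.18, SE 0.0599, adjusted p = 6.5e-04 in limma). The libraries summed to between 574007 and 620054 FPKM in mutant and between 571180 and 631534 FPKM in wild type; read counts per library are not in the table, so depth is not known from it. Mutant column 0 stood apart: a list of 8 genes of the response to cell dissociation summed to 1194 FPKM there, to 80.0 and 88.3 FPKM in the other mutant libraries, and to between 47.0 and 56.2 FPKM in wild type. It also gave the value farthest from the other 2 mutant libraries for 25 of 42 members (59.5%), and for 49.2% of all genes tested. Y-linked genes summed to between 14.6 and 82.8 FPKM in mutant, against 0.0281 to 0.639 FPKM in wild type, and Xist measured 37.3, 0.0176 and 0.0244 FPKM in mutant columns 0, 1 and 2, against 63.1 to 65.9 FPKM in wild type. Sex and genotype therefore cannot be told apart, and mutant column 0 held both kinds of transcript. The label of wild-type column 0 is dated to day 30 of its month and the labels of the other samples to day 24, so the calls of the members are also given without that column. The 10 chondrocyte markers measured summed to 10316, 6971 and 6842 FPKM in mutant columns 0, 1 and 2, and to between 9687 and 11417 FPKM in wild type. Mutant columns 1 and 2 lay below every wild-type library. Of these markers, 7 had a negative and 3 a positive difference (median -0.43), and 1 of them, Comp, fell. Erythroid markers summed to 14.9 to 49.4 FPKM in mutant and 196 to 221 FPKM in wild type, with all 5 tested lower, and neutrophil markers to 0.891 to 6.93 FPKM in mutant and 64.9 to 186 FPKM in wild type. Of the 5 neutrophil markers, S100a8 and S100a9 made up most of the sum. They were the 2 tested, and both fell. Of the others, all low, Ngp was lower in every mutant library, while Camp and Elane overlapped. Of 8 muscle markers, Tnnt3 made up most of the sum, at 41.6 to 63.5 FPKM in mutant and 123 to 162 FPKM in wild type; it was the 1 of 5 tested that fell, and the other 7 summed to 6.24 to 15.8 FPKM in mutant and 15.9 to 28.9 FPKM in wild type. Perichondrium and fibroblast markers summed to 701 to 1187 FPKM in mutant and 964 to 1284 FPKM in wild type. Osteoblast markers summed to 31.8 to 197 FPKM in mutant and 51.0 to 155 FPKM in wild type. For macrophage markers the sums were 10.5 to 40.4 FPKM in mutant and 32.7 to 69.3 FPKM in wild type. For endothelial markers they were 1.37 to 9.97 FPKM in mutant and 2.49 to 4.34 FPKM in wild type. The groups overlapped for each of these sums. The part of any of these cell types in the results for the members was not tested. In bulk RNA, fewer cells of a type and less RNA per cell cannot be told apart.

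The enzymes that edit heparan sulfate comprised 7 members, of which 6 were tested: 1 rose, 1 fell and 4 did not pass, with 5 of the 6 differences positive. Hs6st2 lies on the X chromosome (mm10, chrX:51387212-51681856, minus strand). It measured 4.999, 5.07 and 6.24 FPKM in mutant columns 0, 1 and 2, against 2.40, 2.25 and 2.49 FPKM in wild-type columns 0, 1 and 2. Every mutant library exceeded every wild-type library, with mutant column 2 the highest. The mean was 5.44 ± 0.699 FPKM in Jab1 cKO and 2.38 ± 0.121 FPKM in wild type (SD, n = 3 each), a difference of 0.92 on the log2(FPKM + 1) scale, which understates the change of genes this low (95% interval 0.67 to 1.18, adjusted p = 0.013 in limma). Without each mutant column in turn the adjusted p was 0.027, 0.042 and 0.042, and without each wild-type column it was 0.060, 0.058 and 0.055, so the call did not hold when a wild-type library was left out. Of 500 X-linked genes tested, 11 rose (2.2%) and 24 fell (4.8%), with a median difference of -0.09. Fitted with the summed Y-linked expression as a covariate, the Hs6st2 difference was 0.62 (SE 0.339, against 0.104 without it, adjusted p = 0.41 in limma). This covariate follows the genotype closely, and Jab1 itself lost its call with it (adjusted p = 0.084). That fit therefore cannot separate sex from genotype.

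Glce lies on chromosome 9 (mm10, chr9:62057248-62122655, minus strand) and was the most abundant heparan-editing member. It measured 36.0, 38.7 and 37.6 FPKM in mutant columns 0, 1 and 2, against 53.9, 54.1 and 48.4 FPKM in wild-type columns 0, 1 and 2. The mutant libraries lay within a narrow band that the wild-type libraries did not reach. The mean was 37.4 ± 1.36 FPKM in Jab1 cKO and 52.1 ± 3.21 FPKM in wild type (SD, n = 3 each; log2 difference -0.47, 95% interval -0.64 to -0.29, adjusted p = 0.027 in limma). The size of the difference stayed between -0.52 and -0.44 without any single library, but the call was lost each time, at adjusted p between 0.052 and 0.098. Of the stretches of read length in Glce transcripts, 0.41% were shared with the microRNA gene Mir5133 that overlaps it on the same strand, and 0.0385% of those in Hs6st2 with its paralog Hs6st3.

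The promoters of these heparan-editing genes are shown because Glce fell while Hs6st2 rose. Each window runs from 250 bases before to 50 bases after an annotated start (RefSeq, build GRCm38.p6), is printed 5′ to 3′ on the gene's own strand, and has in capitals the matches to 4 motifs searched on both strands. The GC box was searched as GGGCGG, a site bound by Sp factors in many promoters. The TATA box was searched as TATAAA, where the basal machinery can dock. The CCAAT box was searched by the letters of its name. The AP-1 site was searched as TGANTCA, which Fos and Jun dimers bind. Glce has 1 window, at chr9:62122560-62122859 on the minus strand. Hs6st2 has windows at 2 starts, chrX:51680428-51680727 and chrX:51681553-51681852, both on the minus strand.
Glce: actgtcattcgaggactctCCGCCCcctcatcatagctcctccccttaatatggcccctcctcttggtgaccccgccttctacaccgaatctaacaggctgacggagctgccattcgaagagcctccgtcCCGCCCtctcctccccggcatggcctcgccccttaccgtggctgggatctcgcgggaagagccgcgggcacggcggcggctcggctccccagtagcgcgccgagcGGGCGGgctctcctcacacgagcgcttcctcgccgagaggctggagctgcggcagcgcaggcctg
Hs6st2, first window: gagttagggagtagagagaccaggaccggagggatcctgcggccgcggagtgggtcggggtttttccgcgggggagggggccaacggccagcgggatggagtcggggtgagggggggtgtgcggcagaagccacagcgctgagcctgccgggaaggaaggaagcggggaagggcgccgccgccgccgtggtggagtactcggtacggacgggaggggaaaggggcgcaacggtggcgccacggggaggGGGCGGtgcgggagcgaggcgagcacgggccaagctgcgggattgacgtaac
Hs6st2, second window: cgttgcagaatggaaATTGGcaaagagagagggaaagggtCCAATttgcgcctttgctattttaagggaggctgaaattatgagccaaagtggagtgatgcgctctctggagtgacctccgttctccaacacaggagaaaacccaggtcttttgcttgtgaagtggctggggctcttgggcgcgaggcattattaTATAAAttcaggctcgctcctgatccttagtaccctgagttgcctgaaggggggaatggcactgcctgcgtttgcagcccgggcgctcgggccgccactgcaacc
The Glce window holds 3 GC boxes, and the first Hs6st2 window holds 1. The second Hs6st2 window holds 1 TATA box and 2 CCAAT boxes. No window was available for Sulf1. Among 32851 mouse promoter windows of the same length, 35.7% held a GC box, 13.6% a TATA box, 37.4% a CCAAT box and 7.81% an AP-1 site. Among the 44 windows of members these shares were 63.6%, 4.55%, 38.6% and 2.27% in that order. None of the 3 windows shown matched the AP-1 letters. The G and C bases made up 68.0% of the Glce window, and 71.7% and 53.7% of the first and second Hs6st2 windows. The median was 65.7% over the member windows and 52.7% over all windows.

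The remaining heparan-editing enzymes did not pass the test. Hs2st1, the 2-O-sulfotransferase that acts on the iduronic acid made by Glce, measured 11.2, 13.3 and 11.8 FPKM in mutant columns 0, 1 and 2, against 6.87, 9.10 and 9.30 FPKM in wild-type columns 0, 1 and 2. The groups did not overlap (log2 difference 0.48, 95% interval 0.16 to 0.80, adjusted p = 0.091 in limma). Hs6st1, the sister enzyme of Hs6st2, measured 6.46, 5.42 and 7.05 FPKM in mutant and 3.88, 4.42 and 4.99 FPKM in wild type. It too was higher in every mutant library, with a difference of 0.43 (adjusted p = 0.11). Ndst2, an N-deacetylase and N-sulfotransferase that starts chain sulfation, averaged 9.49 ± 0.554 FPKM in mutant and 7.97 ± 0.225 FPKM in wild type (difference 0.22, adjusted p = 0.12). Its relative Ndst1 averaged 11.8 ± 0.208 FPKM in mutant and 10.2 ± 1.68 FPKM in wild type, and the groups overlapped (adjusted p = 0.37). Hs3st1, which adds the 3-O-sulfate of the antithrombin-binding site, was not tested and lay between 0.134 and 0.520 FPKM in mutant and between 0.0592 and 0.273 FPKM in wild type.

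The 2 extracellular sulfatases, which trim 6-O-sulfate from finished heparan chains at the cell surface, differed in level and in outcome. Sulf1 (mm10, chr1:12692277-12861192, plus strand) measured 15.1, 14.4 and 14.4 FPKM in mutant columns 0, 1 and 2, against 5.75, 9.48 and 8.50 FPKM in wild-type columns 0, 1 and 2. The mutant libraries were nearly equal, and wild-type column 0 was the lowest of all. The mean was 14.6 ± 0.391 FPKM in Jab1 cKO and 7.91 ± 1.93 FPKM in wild type (SD, n = 3 each; log2 difference 0.84, 95% interval 0.42 to 1.25, adjusted p = 0.048 in limma). The call was lost without any single library other than wild-type column 0 (adjusted p between 0.080 and 0.136, with differences of 0.82 to 0.97); without wild-type column 0 it held, with a smaller difference of 0.65 (adjusted p = 0.047). Sulf2, far more abundant, measured 279, 154 and 148 FPKM in mutant columns 0, 1 and 2, against 225, 220 and 191 FPKM in wild-type columns 0, 1 and 2. Mutant column 0 was the highest of the 6 and the other mutant libraries the lowest, and Sulf2 did not pass (difference -0.19, 95% interval -0.83 to 0.45, adjusted p = 0.69).

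**Figure D2:**
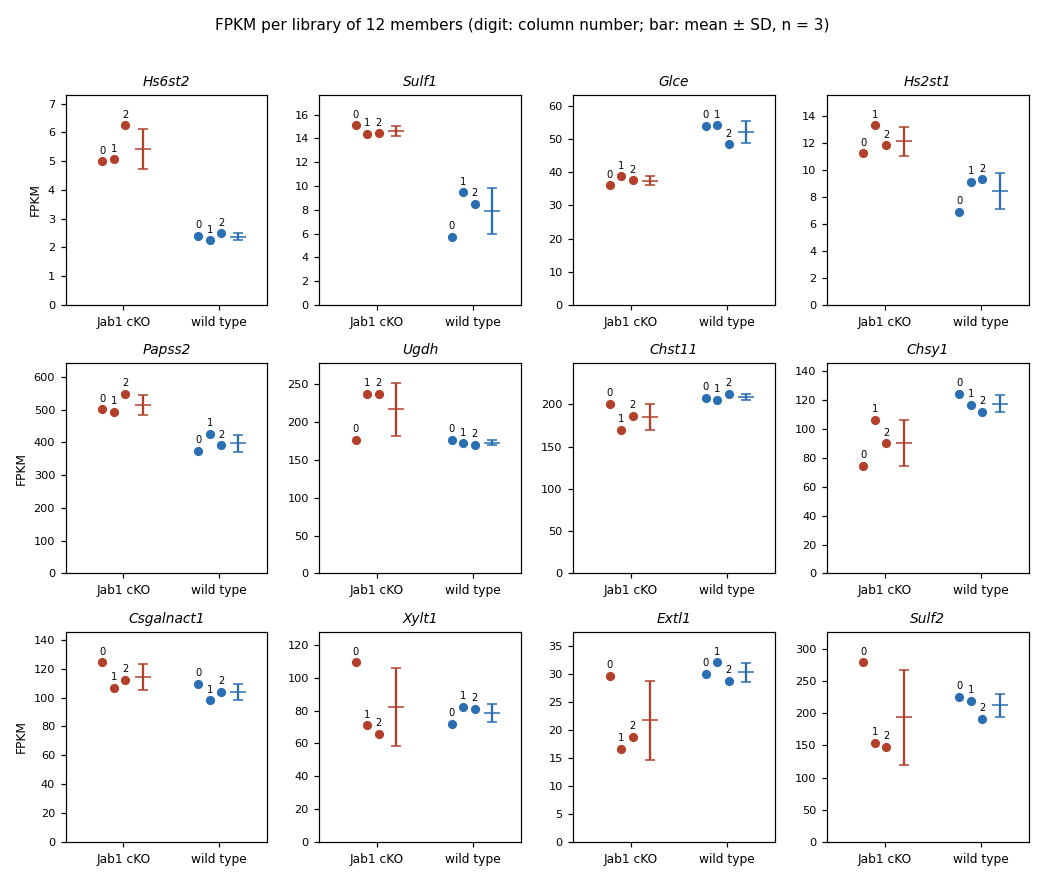
FPKM of 12 members in each library. The vertical axis of each panel is FPKM from 0, digits mark the column number, and bars give the mean ± SD of 3 libraries. Hs6st2, Sulf1 and Glce separate the groups, as do Hs2st1, Papss2, Ugdh, Chst11 and Chsy1, which were not called, and 32.2% of all genes. In Sulf2, Xylt1 and Extl1 mutant column 0 lies away from the other mutant libraries.

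The heparan polymerases gave no call among their 5 members. Ext1, which with Ext2 forms the polymerase complex and is mutated in hereditary multiple exostoses, measured 19.8, 17.9 and 17.2 FPKM in mutant columns 0, 1 and 2, against 15.7, 15.3 and 15.8 FPKM in wild-type columns 0, 1 and 2. Every mutant library was higher (difference 0.22, 95% interval 0.04 to 0.39, adjusted p = 0.14 in limma). Ext2 was the most abundant of the role, at 64.7, 48.1 and 49.8 FPKM in mutant and 52.6, 50.9 and 47.9 FPKM in wild type. Only mutant column 0 lay above the wild-type libraries (adjusted p = 0.70). Extl1, an exostosin-like glycosyltransferase, measured 29.6, 16.6 and 18.8 FPKM in mutant columns 0, 1 and 2, against 30.0, 32.0 and 28.7 FPKM in wild-type columns 0, 1 and 2. Mutant column 0 sat among the wild-type libraries and the others well under them. The difference was -0.50 with all libraries (adjusted p = 0.21) and -0.74 without mutant column 0, where Extl1 passed (adjusted p = 0.027). Extl2, which can add a capping sugar to the linker, averaged 15.9 ± 2.12 FPKM in mutant and 20.8 ± 1.92 FPKM in wild type, without overlap (difference -0.37, adjusted p = 0.14). Extl3, which starts heparan chains, averaged 8.65 ± 0.612 FPKM in mutant and 8.70 ± 0.830 FPKM in wild type (95% interval of the difference -0.23 to 0.22). Over the heparan polymerases and editing enzymes together, 11 members were tested, 1 rose and 1 fell, and the median difference was 0.20.

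The supply of activated sulfate showed no change that passed the test among its 5 members, which included the most abundant one. Papss2, the PAPS synthase whose loss causes brachymorphism in mice, measured 501, 494 and 548 FPKM in mutant columns 0, 1 and 2, against 374, 426 and 391 FPKM in wild-type columns 0, 1 and 2. Every mutant library lay above every wild-type library, and the means were 514 ± 29.4 FPKM in mutant and 397 ± 26.8 FPKM in wild type (SD, n = 3 each). The difference of 0.37 on the log2 scale missed the threshold (95% interval 0.15 to 0.60, adjusted p = 0.075 in limma). Its isozyme Papss1 averaged 55.5 ± 4.70 FPKM in mutant and 59.2 ± 4.47 FPKM in wild type, and the groups overlapped (adjusted p = 0.59). The ratio of Papss2 to Papss1 was 9.997, 8.54 and 9.35 in mutant columns 0, 1 and 2, against 5.86, 7.76 and 6.65 in wild-type columns 0, 1 and 2. The ratio was higher in all mutant libraries. The 2-sided exact permutation test gave p = 0.1, the smallest that 3 against 3 allows (0.15 adjusted over 3 enzyme ratios).

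Slc26a2, the sulfate importer mutated in diastrophic dysplasia, measured 124, 111 and 113 FPKM in mutant columns 0, 1 and 2, against 106, 123 and 122 FPKM in wild-type columns 0, 1 and 2. The groups overlapped, and the interval of the fold change on the FPKM + 1 scale ran from 0.851 to 1.16 (adjusted p = 0.95). Slc35b2, which carries PAPS into the Golgi, averaged 86.0 ± 4.68 FPKM in mutant and 78.4 ± 9.62 FPKM in wild type (difference 0.14, adjusted p = 0.48). Impad1, a Golgi phosphatase that clears the spent donor product, averaged 102 ± 12.6 FPKM in mutant and 104 ± 1.87 FPKM in wild type (difference -0.03, adjusted p = 0.88).

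Among the 3 members that supply sugar nucleotides none passed. Ugdh, the dehydrogenase that makes UDP-glucuronic acid, measured 177, 237 and 237 FPKM in mutant columns 0, 1 and 2, against 176, 172 and 170 FPKM in wild-type columns 0, 1 and 2. Mutant column 0 was barely above the wild-type libraries, while the other 2 lay far above. The difference was 0.31 with all libraries (95% interval -0.01 to 0.64, adjusted p = 0.21 in limma) and 0.45 without mutant column 0, where Ugdh passed (adjusted p = 0.036). Ugp2, the pyrophosphorylase that makes its substrate UDP-glucose, averaged 105 ± 14.6 FPKM in mutant and 91.7 ± 4.74 FPKM in wild type, with overlap (adjusted p = 0.38). Slc35d1, a transporter that brings UDP-glucuronic acid and UDP-N-acetylgalactosamine into the endoplasmic reticulum, averaged 14.8 ± 2.58 FPKM in mutant and 17.1 ± 2.79 FPKM in wild type (difference -0.20, adjusted p = 0.50).

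The 5 enzymes of the linker tetrasaccharide, which both chain types share, held no call, and the groups overlapped for each of them. Xylt1, the xylosyltransferase that starts the linker, measured 109, 71.1 and 65.6 FPKM in mutant columns 0, 1 and 2, against 72.0, 82.2 and 80.8 FPKM in wild-type columns 0, 1 and 2. The mutant libraries gave both the highest and the lowest values, so the interval was wide (difference 0.03, 95% interval -0.46 to 0.53, adjusted p = 0.94 in limma). Xylt2, its isozyme, averaged 9.66 ± 0.289 FPKM in mutant and 9.26 ± 0.729 FPKM in wild type (adjusted p = 0.69). The ratio of Xylt1 to Xylt2 was 11.7, 7.32 and 6.62 in mutant and 7.35, 8.60 and 9.58 in wild type (2-sided exact permutation test, p = 0.9). B3galt6, the galactosyltransferase that adds the second galactose, had the smallest p of the role, with 6.09, 6.77 and 7.67 FPKM in mutant and 8.61, 7.12 and 7.98 FPKM in wild type. Its groups overlapped (difference -0.18, adjusted p = 0.35). B4galt7, which adds the first galactose, averaged 28.7 ± 0.699 FPKM in mutant and 27.5 ± 2.74 FPKM in wild type, and B3gat3, which adds the closing glucuronic acid, 28.8 ± 0.819 FPKM in mutant and 30.6 ± 2.05 FPKM in wild type.

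None of the 12 tested chondroitin and dermatan members passed, and the median difference was -0.02. Before adjustment 1 was higher and 2 were lower (p under 0.05 in limma), beside 24.7% of all genes in either direction. Chsy1, a chondroitin synthase that elongates the chain, measured 74.5, 106 and 89.9 FPKM in mutant columns 0, 1 and 2, against 124, 117 and 112 FPKM in wild-type columns 0, 1 and 2. Every mutant library was lower, with mutant column 0 the lowest (difference -0.39, 95% interval -0.73 to -0.05, adjusted p = 0.16 in limma). Csgalnact1, the N-acetylgalactosaminyltransferase that commits the linker to chondroitin, was the most abundant polymerase member, with 124, 107 and 112 FPKM in mutant and 109, 98.1 and 104 FPKM in wild type. The groups overlapped (difference 0.14, adjusted p = 0.39). Its relative Csgalnact2 averaged 28.5 ± 2.72 FPKM in mutant and 28.4 ± 1.68 FPKM in wild type. Chpf2, a polymerizing cofactor, averaged 70.4 ± 3.31 FPKM in mutant and 76.9 ± 3.34 FPKM in wild type, without overlap (difference -0.13, adjusted p = 0.32). Its relative Chpf averaged 36.4 ± 9.12 FPKM in mutant, where column 0 reached 46.6 FPKM, and 31.4 ± 1.47 FPKM in wild type (adjusted p = 0.55). Chsy3, a further synthase, averaged 13.4 ± 2.43 FPKM in mutant and 12.8 ± 1.58 FPKM in wild type (adjusted p = 0.88).

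Of the 9 enzymes that modify chondroitin and dermatan, 6 were tested and none passed, and 5 of the 6 differences were negative. Chst11, the 4-O-sulfotransferase that makes the main chondroitin sulfate of growth cartilage, measured 200, 170 and 186 FPKM in mutant columns 0, 1 and 2, against 207, 205 and 212 FPKM in wild-type columns 0, 1 and 2. The mutant libraries were all lower and more spread out (difference -0.17, 95% interval -0.38 to 0.04, adjusted p = 0.28 in limma). Chst12, a second 4-O-sulfotransferase, had the smallest p of the role, with 17.3, 16.7 and 16.9 FPKM in mutant and 17.8, 23.5 and 22.8 FPKM in wild type. Wild-type column 0 sat close to the mutant libraries, and the others well above (difference -0.31, adjusted p = 0.17). Dsel, a dermatan epimerase, averaged 15.1 ± 2.32 FPKM in mutant and 18.01 ± 0.576 FPKM in wild type (difference -0.25, adjusted p = 0.25). Its relative Dse averaged 42.2 ± 3.63 FPKM in mutant and 43.3 ± 3.42 FPKM in wild type, and Chst14, the dermatan 4-O-sulfotransferase, 10.9 ± 1.47 FPKM in mutant and 10.9 ± 1.31 FPKM in wild type. Ust, which adds sulfate to the 2-O position of uronic acid, was the member of this role with a positive difference, at 6.14 ± 0.436 FPKM in mutant and 5.04 ± 0.490 FPKM in wild type (0.24, adjusted p = 0.18).

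The other chondroitin sulfotransferases were near the bottom of the range. Chst3, the chondroitin 6-O-sulfotransferase, measured 1.28, 1.20 and 1.07 FPKM in mutant columns 0, 1 and 2, against 0.922, 0.657 and 0.574 FPKM in wild-type columns 0, 1 and 2. Chst7, a second 6-O-sulfotransferase, measured 0.700, 0.845 and 1.01 FPKM in mutant and 0.545, 0.346 and 0.322 FPKM in wild type. Both were higher in every mutant library and neither was tested, because their means lay under the filter. Chst13, a further 4-O-sulfotransferase, lay between 0.0749 and 0.184 FPKM in mutant and was listed at 0 to 0.204 FPKM in wild type. The ratio of Chst11 to Chst3 was 156, 141 and 175 in mutant columns 0, 1 and 2, against 225, 312 and 370 in wild-type columns 0, 1 and 2. It was lower in every mutant library, a difference of -0.92 on the log2 scale (2-sided exact permutation test, p = 0.1, adjusted 0.15).

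The lysosomal enzymes that take the chains apart gave no call among 4 members. Galns, the sulfatase deficient in Morquio syndrome type A, measured 3.69, 3.33 and 3.29 FPKM in mutant columns 0, 1 and 2, against 4.60, 4.32 and 4.50 FPKM in wild-type columns 0, 1 and 2. Every mutant library was lower (difference -0.30, 95% interval -0.50 to -0.11, adjusted p = 0.084 in limma). Arsb, which removes 4-O-sulfate, was the most abundant, at 10.5, 7.50 and 9.87 FPKM in mutant and 9.27, 10.7 and 9.29 FPKM in wild type, with overlap. Ids, the X-linked iduronate sulfatase, averaged 6.25 ± 0.573 FPKM in mutant and 5.25 ± 0.663 FPKM in wild type (adjusted p = 0.29). Idua, the iduronidase that acts after it, averaged 4.35 ± 0.589 FPKM in mutant and 4.84 ± 0.859 FPKM in wild type (adjusted p = 0.63).

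**Figure D3:**
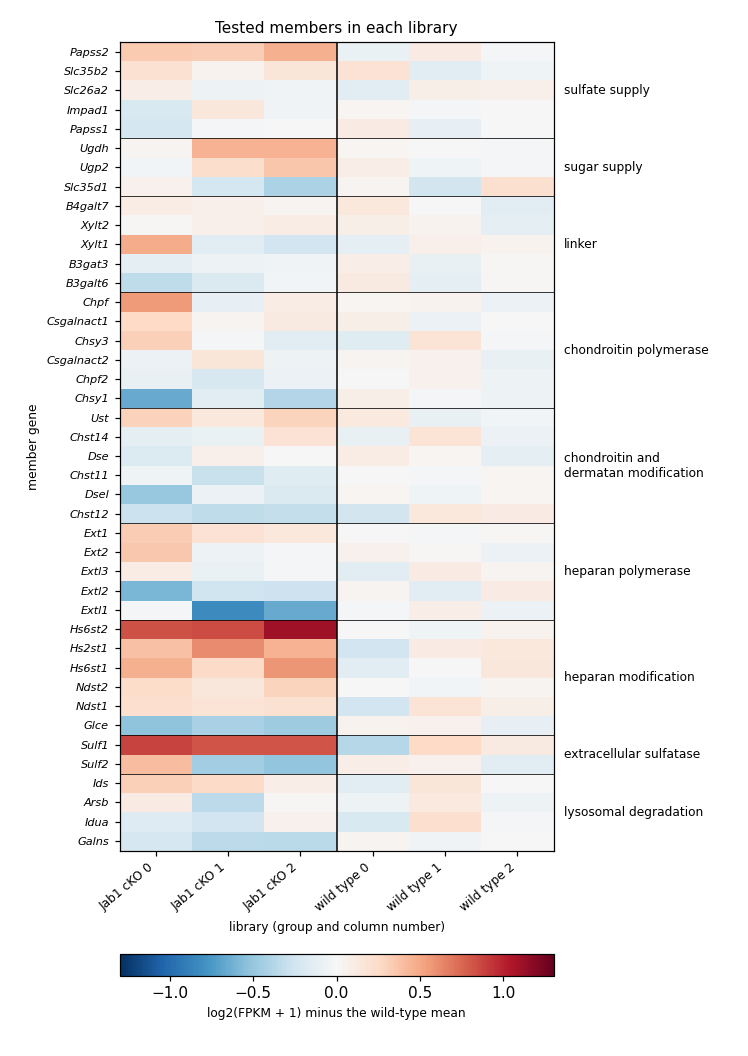
Each tested member in each library as log2(FPKM + 1) minus the wild-type mean, on a colour scale, with mutant columns on the left and wild-type columns on the right. Rows are grouped by role. The rows of Hs6st2, Sulf1 and Glce have 1 sign in all mutant columns, as do uncalled members such as Papss2 and Chsy1. Mutant column 0 lies farthest from the other mutant columns in 25 of the 42 rows (59.5%, beside 49.2% of all genes).

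Genes of the same pathway outside the member set were taken from 5 lists of 69 genes, of which 67 were in the table and 55 were tested; 4 rose and 4 fell, together 14.5%, beside 6.07% of all genes. The further synthesis enzymes and transporters held 17 tested genes, of which 2 rose. Chst15, which makes the doubly sulfated chondroitin sulfate E, measured 6.23, 5.24 and 6.27 FPKM in mutant columns 0, 1 and 2 and was listed at 0 in each library of the wild type. It passed the test, but no fold is given against a group listed at 0. Other genes were listed this way too: with genes at 0 in a whole group left out, 13620 of the 14012 genes were tested. Whether such zeros reflect absent RNA was not tested. Hs3st3a1, a 3-O-sulfotransferase of heparan, rose to 14.2 ± 2.96 FPKM in mutant, against 6.98 ± 0.215 FPKM in wild type (difference 0.91, adjusted p = 0.028). Its near relative Hs3st3b1 averaged 21.7 ± 5.99 FPKM in mutant and 11.2 ± 0.517 FPKM in wild type and did not pass (0.87, adjusted p = 0.052); these 2 genes share 10.7% of the Hs3st3a1 stretches of read length, so their split is uncertain. Hs3st3a1 lost its call without mutant column 2 or any wild-type column (highest adjusted p = 0.106). Chst15, counted among the 4 that rose, kept its call without each of the 6 libraries. However, Chst15 passed the filter only through the mutant libraries, and its wild-type values are all 0. Leaving out a library could therefore hardly change its call, and those fits do not show how firm it is. With summed Y-linked expression as a covariate, which follows the genotype closely, Chst15 lost its call, as did Jab1.

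Among 15 tested genes listed as lysosomal or catabolic outside the set none passed. The smallest adjusted p was 0.061 for Naglu, an N-acetylglucosaminidase of heparan breakdown. Of 10 heparan sulfate core proteins, 1 rose and 1 fell. Sdc1, syndecan 1, measured 56.4, 58.5 and 70.3 FPKM in mutant and 41.7, 38.3 and 36.0 FPKM in wild type (difference 0.66, adjusted p = 0.032), and Gpc3, glypican 3, 145, 144 and 125 FPKM in mutant and 239, 250 and 194 FPKM in wild type (difference -0.71, adjusted p = 0.036). In both, the mutant and wild-type libraries did not overlap. Of 8 chondroitin and dermatan sulfate core proteins, 2 fell. Dcn, decorin, fell to 341 ± 31.8 FPKM in mutant, against 504 ± 30.0 FPKM in wild type (adjusted p = 0.040), and Srgn, serglycin, a core protein of blood cell granules, fell to 0.932 ± 0.111 FPKM in mutant, against 5.24 ± 2.30 FPKM in wild type (adjusted p = 0.033). Srgn moved the same way as the erythroid and neutrophil marker sums given above, while the macrophage and endothelial sums overlapped between the groups. The part of these cell types in the fall of Srgn was not tested. Among 5 keratan sulfate enzymes, Chst2, a sulfotransferase acting on N-acetylglucosamine, rose to 2.62 ± 0.279 FPKM in mutant, against 1.12 ± 0.200 FPKM in wild type (adjusted p = 0.035). With 1 library left out at a time, the calls of Gpc3, Dcn and Chst2 were lost each time, at adjusted p of 0.052 to 0.118, 0.056 to 0.128 and 0.065 to 0.112 in that order. Sdc1 kept its call without mutant column 0 (adjusted p = 0.042) and lost it without each other library, at up to 0.114. Srgn kept its call without wild-type column 0 (adjusted p = 0.041) and lost it without each other library, at up to 0.109.

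Across settings the 3 called members kept their sign but not always their call. The difference ran from 0.62 to 1.15 for Hs6st2, from 0.65 to 0.98 for Sulf1 and from -0.56 to -0.41 for Glce. Over the 18 alternatives (in filter, scaling, pseudocount, variance prior, covariate or libraries used), 34 of the 42 members were called under no setting, as reported or otherwise. Papss2, Ugdh, Extl1, Hs2st1 and Galns were called under at least 1 of them and not as reported.

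**Figure D4:**
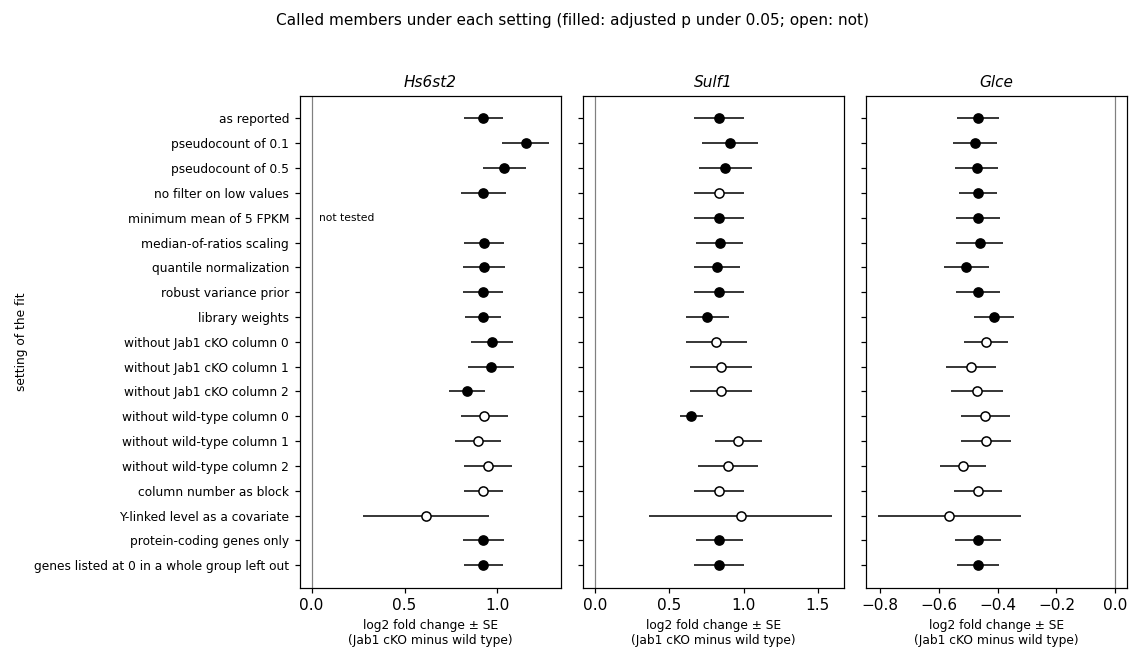
Difference of Hs6st2, Sulf1 and Glce under the reported setting and 18 alternatives, in 1 of which Hs6st2 was not tested. The horizontal axis is the log2 fold change ± SE, Jab1 cKO minus wild type, filled points pass an adjusted p under 0.05 and open points do not. Every point lies on its gene's side of 0, and none of the 3 genes is filled with the column number as a block or with Y-linked expression as a covariate.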

How the data were processed

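Libraries were prepared with a stranded total RNA kit after ribosomal RNA depletion and sequenced as single-end reads of 50 bases, per the labels' protocols, which also name CLC Genomics Workbench. The submitters' processing notes name STAR, Cufflinks, Cuffdiff and the mm10 build; versions, and any scaling between libraries, are not given in the sources used here. FPKM values per gene stand in the deposited table as the authors made them, so no count test was run. Of 6 value columns, 4 matched a library by name and 2 only a group. FPKM values were taken as log2(FPKM + 1) for genes that averaged 1 FPKM or more and fitted with limma 3.58.1 in R 4.3.3 (trended variance prior, Jab1 cKO minus wild type, 2-sided), with Benjamini-Hochberg adjustment over all genes tested; a gene was called at an adjusted p under 0.05. The script was tested on simulated data. Ratios of Papss2 to Papss1, Xylt1 to Xylt2 and Chst11 to Chst3 were compared by exact permutation. Gene positions came from GENCODE annotation of mm10, matched by ID for 99.4% of genes. Values per library are given for called members and, in each role, for the member with the smallest p and the most abundant one, and for others where useful; pathway genes were named where called, except 1 counted gene that is not reported here. The members and lists were chosen with earlier results of these data known. 16 alternatives were planned, and 2 (protein-coding genes alone; genes listed at 0 in a whole group left out) were chosen after seeing the data.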

Additional observations from a re-analysis of the deposited data

How the results depend on the processing

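With 2 members rising and 1 falling as reported, the counts of members that rose and fell were 4 and 3 with library weights, 4 and 1 with protein-coding genes alone, 1 and 1 without the filter on low values, where Sulf1 missed the threshold, and 1 and 1 at a minimum mean of 5 FPKM, where Hs6st2 was not tested. Leaving out each library in turn gave 0 to 2 members that rose and 0 to 1 that fell. With the replicate block (the column number as a block) 0 rose and 0 fell, and the adjusted p was 0.087 for Hs6st2, 0.139 for Glce and 0.154 for Sulf1. No pairing by number was seen: same-numbered libraries deviated from their group means with correlations of -0.033, -0.042 and -0.023. A shared litter or preparation was not tested, and column 2 of each genotype was matched only to its group. With summed Y-linked expression as a covariate, which follows the genotype closely, 0 rose and 0 fell, 11 of the 42 members changed sign without a call, and Jab1 gave -1.29 with an adjusted p of 0.084. The pathway genes outside the set, 4 rising and 4 falling as reported, gave 1 and 0 without the filter, 1 and 0 with the replicate block, 0 and 0 with the covariate, 8 and 7 with protein-coding genes alone, and 1 to 4 rising and 0 to 3 falling without single libraries. Over all genes, 850 were called as reported, between 174 and 666 without single libraries, 60 with the replicate block and 26 with the covariate. Pseudocounts of 0.1 and 0.5, both rescalings of the libraries, the robust variance prior and leaving out genes listed at 0 in a whole group kept the same 3 members called. The median difference of all genes moved by less than 0.1 under every setting. Read depth could not be assessed from FPKM, so the precision of the low members rests on the spread of 3 libraries a group.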
